A study of Mus musculus with 2 samples.

Results

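The mitochondrial genome of the mouse carries 37 genes whose symbols begin with mt-, and all 37 were found by gene identifier among the 43346 genes of the deposited tables. They are 13 mRNAs, 2 rRNAs and 22 tRNAs, spread over both strands of 1 small circular DNA. The data came from polyadenylated RNA of the lung of 1 female C57BL/6J mouse aged 10 weeks, an unmodified inbred animal with no treatment named in the labels. The RNA was sequenced in 2 libraries, which the labels call technical replicates 2 and 1 of biological replicate 1. When it was performed is stated for replicate 2 but not for replicate 1. The labels do not state whether both libraries came from 1 RNA extraction. With 1 animal and 1 library on each side, a difference has no replicate check and no p-value is given. Every SD given (n = 2) is a spread of technical libraries and holds no variation among animals.

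Mitochondrial DNA is transcribed from both strands into long precursors that hold many genes each. Excision of the tRNAs, which lie between most of the other genes, frees the mRNAs and rRNAs, and a mitochondrial poly(A) polymerase then adds short tails. All 13 mRNAs encode core subunits of the respiratory chain or of ATP synthase, while the rRNAs and tRNAs serve the mitochondrial ribosome that translates them. Heart muscle and brown fat are known for dense mitochondria, and in the lung so are type 2 cells and airway epithelium.

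Several features of the gene sequences bear on the counts. Mitochondrial genes are so tightly packed that some share bases, and reads over those bases belong to either gene. In the first line the capitals mark the 43 bases that mt-Atp8 shares with the start of mt-Atp6 (chrM:7907-7989, plus strand, GRCm38), and in the second the 7 bases that mt-Nd4l shares with mt-Nd4 (chrM:10147-10193, plus strand).
mt-Atp8 and mt-Atp6: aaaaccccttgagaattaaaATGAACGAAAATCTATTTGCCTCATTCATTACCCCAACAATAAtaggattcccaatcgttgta
mt-Nd4l and mt-Nd4: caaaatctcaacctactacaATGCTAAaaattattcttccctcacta

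In 3 mRNAs the annotated sequence stops at a lone T, which the poly(A) tail is known to complete to a stop codon. These transcripts depend on the tail that also lets them be captured as polyadenylated RNA. mt-Nd1 and mt-Nd2 are annotated with a full TAG, but share its last 2 bases with the tRNA gene that follows. The last 30 bases of mt-Co3 (chrM:9361-9390), mt-Nd4 (chrM:11515-11544) and mt-Cytb (chrM:15259-15288) are shown beside those of mt-Co1 (chrM:6843-6872), whose stop codon is encoded in full. All lie on the plus strand of GRCm38, and the capitals mark the encoded part of the stop codon.
mt-Co3 end: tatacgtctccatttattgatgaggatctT
mt-Nd4 end: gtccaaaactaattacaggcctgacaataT
mt-Cytb end: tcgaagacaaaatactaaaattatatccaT
mt-Co1 end: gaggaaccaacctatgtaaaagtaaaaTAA

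Nuclear DNA carries inserted copies of mitochondrial sequence, and some are annotated as pseudogenes in the deposited tables. Only a single base separates mt-Nd3 (chrM:9459-9498, plus strand) from its copy Gm28438 (chr1:24613080-24613119, minus strand) over the length they share. It is T3C, with the base of mt-Nd3 first and positions counted from 1 at its 5′ end. Likewise A1066T is the only difference between the last 483 bases of mt-Co1 (shown from chrM:6390-6429, plus strand) and Gm29216 (chr1:24616149-24616188, minus strand). The capitals mark the differing base.
mt-Nd3 first bases: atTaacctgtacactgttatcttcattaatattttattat
Gm28438 first bases: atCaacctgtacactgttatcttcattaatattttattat
mt-Co1 shared part: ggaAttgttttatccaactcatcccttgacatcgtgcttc
Gm29216 shared part: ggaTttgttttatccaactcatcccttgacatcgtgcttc

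The tRNA genes are shorter than the sequenced fragments. The phenylalanine tRNA mt-Tf (chrM:1-68, plus strand), the first gene on the genome, is shown whole.
mt-Tf: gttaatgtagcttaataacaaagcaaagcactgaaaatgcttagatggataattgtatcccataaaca

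The libraries held 17110882 expected counts in replicate 2 and 16104442 in replicate 1, and 19597 and 17892 genes were above 0. Lung markers were present in both but at unlike levels: the club cell product Scgb1a1 had 174257 TPM (transcript abundance scaled to the same total in each library) in replicate 2 and 17498 TPM in replicate 1, and the type 2 cell surfactant gene Sftpc had 39612 and 287 TPM. The endothelial markers Cldn5 and Pecam1 were unlike each other, with 607 and 219 TPM in replicate 2 and 0.43 and 74.4 TPM in replicate 1. The type 1 cell markers were unlike each other too. Ager had 2508 TPM in replicate 2 and 13.7 TPM in replicate 1, while Hopx had 1090 and 639 TPM. Sftpb, the other type 2 cell marker, had 2493 TPM in replicate 2 and 48.25 TPM in replicate 1. Markers of other mitochondria-rich tissues differed as well. The 6 cardiac muscle markers had 1191 TPM in all in replicate 2, with 6 of 6 at 1 TPM or more, and 110 TPM in replicate 1, with 5 of 6. The brown fat markers Ucp1 and Cidea summed to 38.5 and 18.7 TPM, and the skeletal muscle markers Ckm and Acta1 to 22.2 TPM in replicate 2 and 0 in replicate 1. The part of these tissues in the mitochondrial values was not tested. With bulk libraries of 1 animal, fewer cells of a type, less RNA per cell and a difference between the libraries themselves cannot be told apart.

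Together the 37 genes took 2.40% of the TPM of replicate 2 and 17.2% of that of replicate 1, with a mean of 9.80% ± 10.5 (SD, n = 2). Of all expected counts they took 1.75% and 8.94%. The 13 mRNAs made up nearly all of it, since the rRNAs added 0.106% of TPM in replicate 2 and 0.652% in replicate 1 and the tRNAs were at 0 in both. As an SD larger than the mean shows, neither library alone gives a usable figure for the mitochondrial share in this lung.

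Complex I passes electrons from NADH to ubiquinone, and 7 of its core subunits are mitochondrial. These mRNAs ran over a wide range within each library, from mt-Nd1 with 2563 TPM in replicate 2 and 16153 TPM in replicate 1 to mt-Nd4l with 54.1 and 237 TPM. mt-Nd2, a proton-pumping membrane subunit, had 1772 TPM in replicate 2 and 16019 TPM in replicate 1. mt-Nd4, another pumping subunit, had 1522 and 7974 TPM, from 28691 and 106895 counts. The remaining subunits were lower when each gene is taken alone. With the reads of nuclear copies added, mt-Nd3 was instead the highest of complex I, with 4740 TPM in replicate 2 and 33785 TPM in replicate 1. mt-Nd5, the longest of the 13 at 1824 bases, had 375 TPM in replicate 2 and 2402 TPM in replicate 1, while the short mt-Nd3 had 313 and 1762 TPM. mt-Nd6 had 81.5 TPM from 432 counts in replicate 2 and 722 TPM from 2750 counts in replicate 1. It is the only mRNA of the minus strand, and in human cells its transcript is known to carry little or no poly(A) tail. mt-Nd6 also shares 14 bases with mt-Nd5 on the opposite strand, and whether strand was used in counting is not given in the sources used here.

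mt-Cytb, the single mitochondrial subunit of complex III, which hands electrons on to cytochrome c, had 2573 TPM in replicate 2 and 14658 TPM in replicate 1. Complex IV reduces oxygen with 3 mitochondrial subunits. mt-Co1, its catalytic core, had 5552 TPM from 119307 counts in replicate 2 and 31747 TPM from 484827 counts in replicate 1, a mean of 18649 ± 18522 TPM (SD, n = 2). The other core subunits were below it in both libraries. mt-Co2, which takes electrons from cytochrome c, had 844 TPM in replicate 2 and 15197 TPM in replicate 1, while mt-Co3 had 1034 and 15475 TPM. For both, the deposited posterior intervals were wide: mt-Co2 reached from 732 to 5300 TPM in replicate 2 and from 13415 to 25843 TPM in replicate 1. The level these bounds stand for is not given in the sources used here. For mt-Cytb the same bounds were 2407 and 2457 TPM in replicate 2, and 13483 and 13640 TPM in replicate 1. These enclose its deposited posterior mean of 2431.64 TPM in replicate 2 and 13561.5 TPM in replicate 1. The TPM of mt-Cytb given above lay over both bounds in each library, so the bounds are not an interval around it.

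ATP synthase has 2 mitochondrial subunits, encoded by the overlapping pair shown above. mt-Atp6, which lines the proton path, had 1061 TPM in replicate 2 and 10798 TPM in replicate 1. mt-Atp8, a small stalk subunit, had 5196 and 32433 TPM. With each gene taken alone, this was the second highest of the 13 in replicate 2 and the highest in replicate 1. Its transcript is 204 bases long, of which the deposited effective length left 41.9 in replicate 2 and 40.9 in replicate 1, so few counts become many TPM: 3432 and 14836 counts lay behind these values. TPM per transcript and reads per base of the whole transcript therefore gave opposite orders of this pair in replicate 1, where mt-Atp8 had the higher TPM but 0.816 times the reads per base of mt-Atp6. In replicate 2 it was higher by both measures, with 4.90 times the TPM and 1.37 times the reads per base. With the reads of nuclear copies added, mt-Atp8 was instead below mt-Atp6 by both measures in both libraries.

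**Figure D1:**
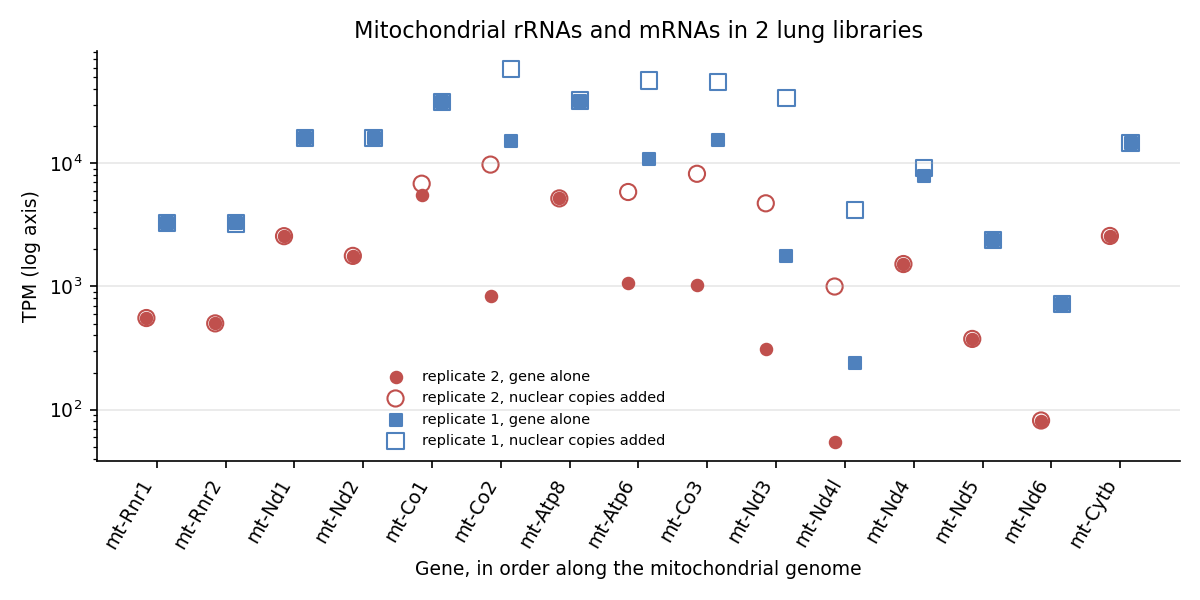
TPM on a log axis of the 2 rRNAs and 13 mRNAs, in order along the mitochondrial genome; red circles are replicate 2 and blue squares replicate 1, filled for the gene alone and open with the reads of its nuclear copies added. Each gene is lower in replicate 2, and the open symbols lie far above the filled ones for mt-Co2, mt-Atp6, mt-Co3, mt-Nd3 and mt-Nd4l, but not for mt-Nd1, mt-Nd2 or mt-Cytb.

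The 2 rRNAs, the RNA of the small and large subunit of the mitochondrial ribosome, were close to each other in each library. mt-Rnr1 had 554 TPM in replicate 2 and 3272 TPM in replicate 1, while mt-Rnr2 had 501 and 3251 TPM. They are made in large amounts in the cell, but in these poly(A)-selected libraries each stood below 9 of the 13 mRNAs in both libraries, and above mt-Nd3, mt-Nd4l, mt-Nd5 and mt-Nd6. With the reads of nuclear copies added to the mRNAs, both rRNAs stood below 11 of 13. Neither had an annotated nuclear copy in the tables, and their reads were given by the authors with a posterior SD of 0.

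All 22 tRNAs were listed at 0 counts in both libraries. They are 59 to 75 bases long, 14 on the plus and 8 on the minus strand, and every one had a deposited effective length of 0. The effective lengths of longer genes imply mean fragments of 184 bases for replicate 2 and 179 bases for replicate 1, and no gene under 109 bases had a count above 0. Of the 3808 genes with an effective length of 0 in both libraries, 2 had counts above 0. The zeros of the tRNAs are therefore a limit of the quantification and say nothing of the tRNA level in this lung.

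Reads of 7 of the 13 mRNAs were divided with nuclear copies on chromosome 1. A search of the reference transcripts at 90% identity or more over at least 50% of the nuclear transcript found 15 annotated copies in the tables, of which 8 had a mean of 1 TPM or more and 5 were at 0 in both libraries. The copies on chromosome 1 lie in a row on the minus strand between 24611535 and 24616197, a span of 4663 bases (GRCm38). They match mitochondrial positions 6390 to 11042, a span of 4653 bases, in the mitochondrial order. These are Gm29216 for mt-Co1, Gm28661 for mt-Co2, Gm10925 for mt-Atp6, Gm28437 for mt-Co3, Gm28438 for mt-Nd3, Gm10222 for mt-Nd4l and Gm28439 for mt-Nd4. For 5 of them the aligned bases are 100% identical. mt-Atp8 lies within the same stretch but has no annotated copy there, and its deposited posterior SD was 0.

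The copies held more TPM than the mitochondrial genes in replicate 2, and less in replicate 1. They summed to 3.22% of the TPM of replicate 2 and 14.9% of that of replicate 1. Genes and copies together came to 5.62% and 32.1%, with a mean of 18.8% ± 18.7 (SD, n = 2). Of all expected counts, genes and copies took 3.02% in replicate 2 and 13.5% in replicate 1. Gm28661 alone had 8990 TPM in replicate 2 and 43111 TPM in replicate 1, above mt-Co2 itself in both libraries. Gm28437 had 7213 and 30251 TPM, and Gm10925 had 4826 and 36583 TPM. Gm28438 had 4504 TPM in replicate 2 and 32583 TPM in replicate 1, while the short Gm10222 had 967 and 4072 TPM. Each of these exceeded the mitochondrial gene it copies in both libraries.

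How the reads were divided differed by gene and by library. Copies took 93.4% of the joint counts of mt-Nd3 in replicate 2 and 94.8% in replicate 1, and 94.6% and 94.4% of those of mt-Nd4l, a nearly equal division in both. For mt-Co2 they took 91.4% in replicate 2 and 73.8% in replicate 1, for mt-Co3 87.4% and 66.1%, and for mt-Atp6 81.9% and 77.1%. The partial copies behaved in opposite ways. Gm29216 took 18.8% of the joint counts of mt-Co1 in replicate 2 and 0.0768% in replicate 1, or 27703 and 373 counts, which made it 58.2-fold higher in replicate 2 (exact 95% interval 52.6 to 64.7) while mt-Co1 was 5.18-fold lower. Gm28439 was listed at 0 in replicate 2 and had 15239 counts in replicate 1, 12.5% of those joint with mt-Nd4.

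The deposited posterior SD of the counts was highest among the divided genes, but it did not rise with the share on copies. It was 72.8% of the posterior mean count of mt-Co2 in replicate 2 and 22.5% in replicate 1, 67.0% and 40.1% for mt-Co3, and 50.9% and 18.3% for mt-Atp6. For mt-Nd4l it was 44.2% in replicate 2 and 25.9% in replicate 1, and for mt-Nd3 19.3% and 8.79%. It was small only for mt-Co1, at 0.161% in replicate 2 and 0.0111% in replicate 1, and for mt-Nd4, at 0.00774% and 0.242%. The genes with no chromosome 1 copy were at or near 0. In replicate 2 the SD exceeded the expected count itself for mt-Co2 (11079 against 6666) and mt-Co3 (18090 against 9803). The gene of origin of a shared read cannot be told apart where gene and copy are identical, so the joint count is the better determined value for these 7 genes.

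**Figure D2:**
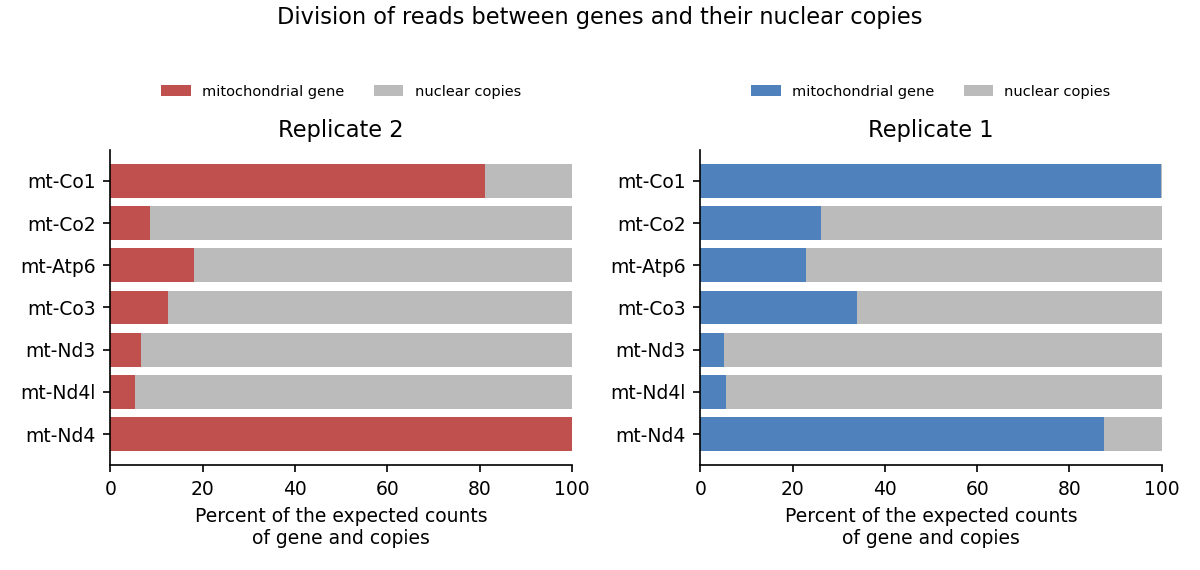
Percent of the joint expected counts given to each mitochondrial gene (coloured) and to its nuclear copies (grey), in replicate 2 on the left and replicate 1 on the right. Copies hold over 60% in both libraries for mt-Co2, mt-Atp6, mt-Co3, mt-Nd3 and mt-Nd4l, while mt-Co1 gives 18.8% to its copy in replicate 2 only and mt-Nd4 12.5% in replicate 1 only.

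Adding the copies' reads changed the order of the mRNAs. Joint levels were set on the TPM scale with the effective length of the mitochondrial gene, since some copies are partial. mt-Co2 became the highest of the 13, with 19.4% of mitochondrial mRNA TPM in replicate 2 and 18.6% in replicate 1 and a mean of 19.0% ± 0.534 (SD, n = 2). Alone it had ranked 9 of 13 in replicate 2 and 6 of 13 in replicate 1. By mean share mt-Co3 was next with 16.3% and 14.6%, then mt-Atp6 with 11.6% and 15.1% and mt-Co1 with 13.5% and 10.2%. These last ones changed places between the libraries, with means of 15.5% ± 1.18 for mt-Co3, 13.3% ± 2.49 for mt-Atp6 and 11.9% ± 2.38 for mt-Co1, so their order is not set by these data.

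mt-Atp8 took 10.3% in replicate 2 and 10.4% in replicate 1, and mt-Nd3 9.38% and 10.8%. In replicate 1 both stood above mt-Co1 by TPM, which ranked mt-Co1 6 of 13 there and 3 of 13 in replicate 2. Reads per base of the whole transcript, with copies added, gave another order. By that measure mt-Atp8 ranked 10 of 13 and mt-Nd3 5 of 13 in both libraries. mt-Co1 stood above them, at 3 in replicate 2 and 4 in replicate 1. mt-Nd1 had means of 5.12% ± 0.0722, mt-Cytb 4.89% ± 0.280 and mt-Nd2 4.32% ± 1.15 (SD, n = 2 each), which overlap. mt-Nd4 at 2.96% ± 0.0657 stood above mt-Nd4l at 1.66% ± 0.443 in both libraries. At the end were mt-Nd5 at 0.756% ± 0.0198 and mt-Nd6 at 0.196% ± 0.0496, ranks 12 and 13 of 13 in each.

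The log2 TPM of the 13 mRNAs correlated between the libraries with a Pearson r of 0.961 and a Spearman rho of 0.868 for the genes alone, and with 0.987 and 0.934 for joint levels. This is across 13 genes that share 1 genome, are not independent and were measured in the same 2 libraries. The overlapping pairs changed in their proportions. With copies added, mt-Atp8 had 0.887 times the TPM of mt-Atp6 in replicate 2 and 0.688 times in replicate 1. mt-Nd4l had 0.657 and 0.463 times that of mt-Nd4 with copies added, against 0.0356 and 0.0297 times for the genes alone. Each of these pairs is known to stay joined as 1 transcript in mammalian mitochondria. By reads per base of the whole transcript, the shorter partner had 0.249 and 0.187 times the value in the first pair and 0.305 and 0.218 times in the second.

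**Figure D3:**
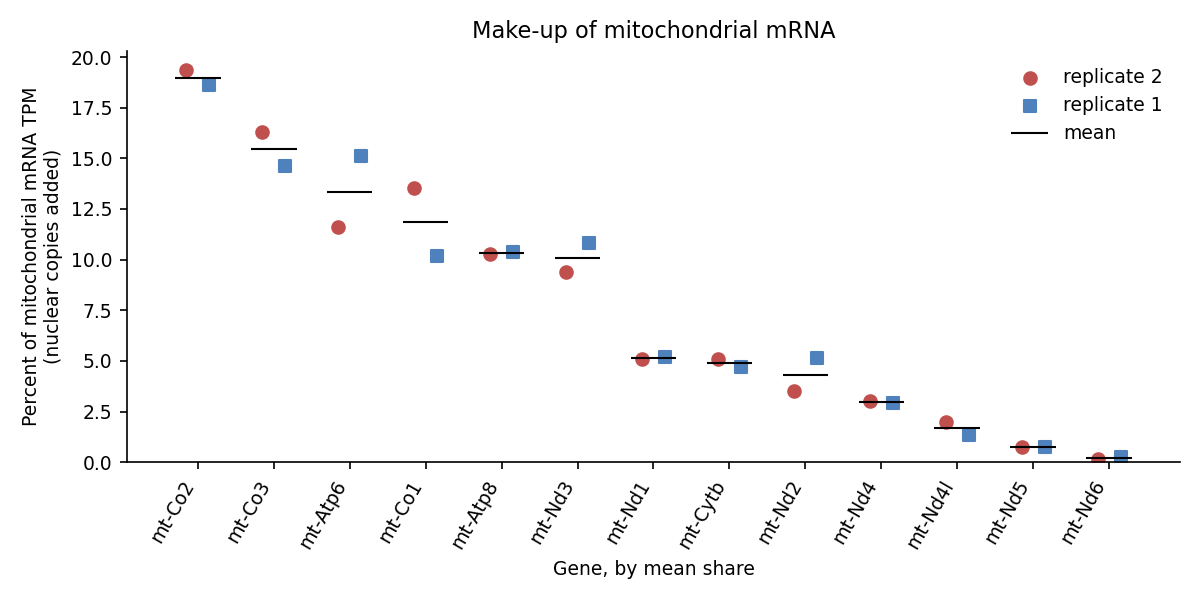
Percent of mitochondrial mRNA TPM in each of the 13 genes with the reads of nuclear copies added, ordered by the mean; red circles are replicate 2, blue squares replicate 1 and bars the mean of both. mt-Co2 leads in both libraries at 19.4% and 18.6%, and mt-Atp6 and mt-Co1 change places between the libraries.

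Between the libraries, each of the 13 mRNAs and both rRNAs were over 2-fold lower in replicate 2 than in replicate 1. The ratio used expected counts scaled for library composition and not TPM. Of the 14139 genes with a mean of at least 1 TPM, 28.2% were over 2-fold lower and 39.3% over 2-fold higher, and the median gene had a log2 ratio of 0.19. The single ratios of the genes alone ran from -2.01 for mt-Nd4l to -4.04 for mt-Co2 on the log2 scale, with an SD over genes of 0.61. mt-Co2 was 16.4-fold lower in replicate 2 (exact 95% interval 16.0 to 16.8), mt-Co3 13.6-fold (13.3 to 13.9) and mt-Atp6 9.28-fold (9.07 to 9.49). These intervals cover counting error only, since there is 1 library on each side. They treat each read as an independent draw, as reads were counted without molecular identifiers. They also leave out the far larger uncertainty in dividing reads with copies.

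With copies added, 4 of the 7 divided genes had ratios nearer to the median of the 6 others, and 3 had ratios farther from it. mt-Co2 was then 5.41-fold lower in replicate 2, mt-Co3 5.05-fold and mt-Atp6 7.34-fold, and these came nearer, as did mt-Nd4 at 5.42-fold. The other 3 moved away: mt-Nd3 was 6.56-fold lower with copies and 5.17-fold alone, mt-Co1 4.21-fold and 5.18-fold, and mt-Nd4l 3.87-fold and 4.02-fold. The SD over the 13 mRNAs was 0.33 on the log2 scale with copies, against 0.61 without, and the median -2.46 against -2.52. The 6 mRNAs with no chromosome 1 copy had a median of -2.53 and an SD of 0.29. They ranged from mt-Cytb, 5.17-fold lower in replicate 2, to mt-Nd2, 8.20-fold lower, with mt-Nd6 at 8.10-fold. The rRNAs lay among them, mt-Rnr1 at 5.36-fold lower (5.22 to 5.51) and mt-Rnr2 at 5.87-fold (5.75 to 6.00). By complex, the joint counts were 6.27-fold lower for complex I, 4.73-fold for complex IV and 7.21-fold for the ATP synthase pair. For the genes alone these were 6.06-fold, 6.34-fold and 8.18-fold, so complexes I and IV changed places with the copies.

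Nuclear genes of like base composition had like ratios. The 13 mRNAs have 31.9% to 41.1% GC, against a median of 50.4% over the genes tested. Of 700 nuclear genes in that range, leaving out the copies, 96.7% were over 2-fold lower in replicate 2, and their median log2 ratio was -2.07. After the trend of all tested genes on GC content was subtracted, the median of the 13 mRNAs was -0.24, and 2 of them, mt-Co2 at -1.87 and mt-Co3 at -1.64, were over 2-fold lower, beside 20.5% of all 14067 genes with a GC value. With copies added as well, the 13 lay between -0.47 and 0.60 and 0 were over 2-fold lower, again beside 20.5% of all genes. mt-Atp8 and mt-Nd3 have less GC than 34%, below which no 2-point class of GC held 20 genes, so the trend there rests on few genes. Over the 13 mRNAs, GC content and log2 ratio had a Pearson r of -0.05 and a Spearman rho of 0.09 for the genes alone, and 0.67 and 0.75 with copies added.

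**Figure D4:**
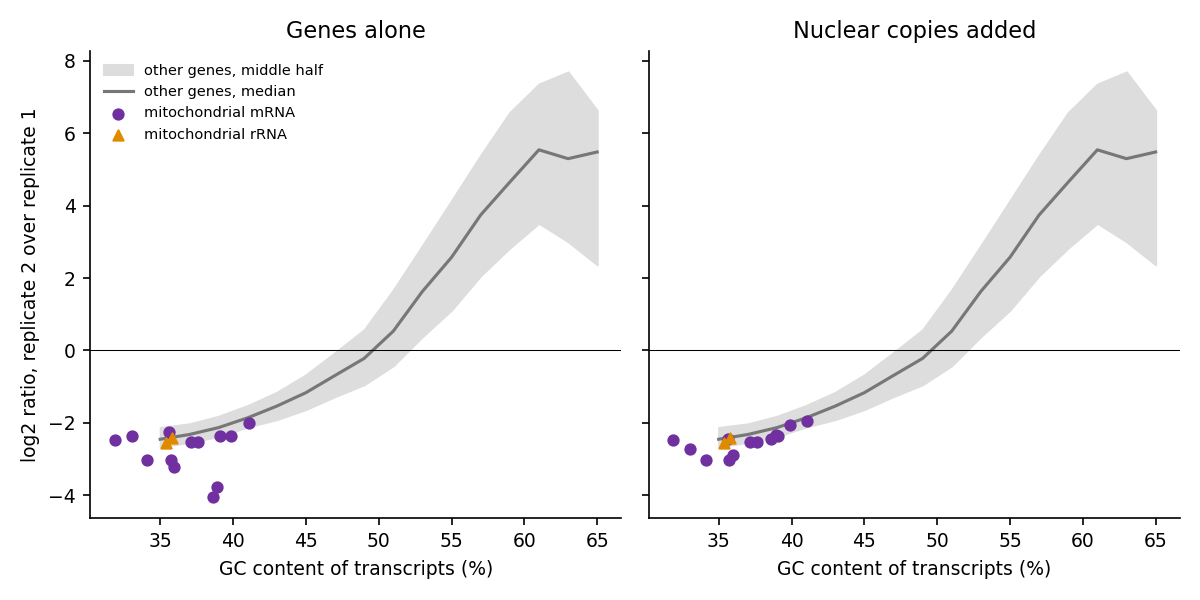
The log2 ratio of replicate 2 over replicate 1 against the GC content of the transcripts in percent, for the genes alone on the left and with nuclear copies added on the right. Purple circles are the 13 mRNAs, orange triangles the 2 rRNAs, the grey line the median of all other tested genes in classes of GC content and the band their interquartile range. mt-Co2 and mt-Co3 lie well under the line on the left, at -4.04 and -3.77, and near it on the right.

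Nuclear genes that make and use mitochondrial RNA did not move as 1 block with it. Of 15 genes for mitochondrial transcription and DNA replication, 6 were over 2-fold lower in replicate 2, 5 over 2-fold higher and 4 within 2-fold, beside 28.2% lower and 39.3% higher among all tested genes. Their median log2 ratio was 0.19, as over all tested genes. With the GC trend subtracted it was 0.37, against -0.02 over all tested genes. Tfam, which packs the genome and starts transcription, had 23.2 TPM in replicate 2 and 94.6 TPM in replicate 1. In scaled counts it was 2.16-fold lower. Mterf3, which restrains transcription, had 32.0 TPM in replicate 2 and 206 TPM in replicate 1, 3.78-fold lower. Ssbp1, the single-strand binding protein of replication, had 37.8 and 83.3 TPM and stayed within 2-fold.

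Of 33 genes for processing, tailing, modification and decay of mitochondrial RNA, 10 (30.3%) were over 2-fold lower in replicate 2 and 12 (36.4%) over 2-fold higher. These shares are near the 28.2% and 39.3% of all tested genes. The median log2 ratio of these 33 genes was -0.04, and 0.41 with the GC trend subtracted. Slirp, which stabilises mitochondrial mRNAs, had 85.1 TPM in replicate 2 and 165 TPM in replicate 1, within 2-fold. Hsd17b10, a subunit of the enzyme that cuts the 5′ ends of tRNAs, had 106 and 34.1 TPM and was 3.27-fold higher (2.89 to 3.72). Rexo2, which degrades short RNA, was nearly equal, with 79.0 TPM in replicate 2 and 87.6 TPM in replicate 1.

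Among 11 translation factors, 2 (18.2%) were over 2-fold lower and 5 (45.5%) over 2-fold higher, beside 28.2% and 39.3% of all tested genes. The median log2 ratio of these 11 was 0.47, and 0.05 with the GC trend subtracted. The elongation factor Tufm had 39.8 TPM in replicate 2 and 0.47 TPM in replicate 1, from 945 and 8 counts, which is 87.3-fold higher (46.9 to 215). Mtif2, an initiation factor, had 9.95 and 32.4 TPM and was 2.61-fold lower, and the elongation factor Gfm1, with 639 counts in replicate 2 and 597 in replicate 1, was within 2-fold. Of 77 proteins of the mitochondrial ribosome, 8 (10.4%) were over 2-fold lower and 35 (45.5%) over 2-fold higher in replicate 2, beside the same 28.2% and 39.3%. Their median log2 ratio was 0.94, and 0.57 with the GC trend subtracted. Mrps33 had 104 TPM in replicate 2 and 272 TPM in replicate 1, Mrps18c had 78.4 and 201 TPM, and Mrpl52 had 229 and 50.9 TPM. In scaled counts Mrps33 was 1.67-fold lower in replicate 2, within 2-fold, while Mrps18c was 2.33-fold lower and Mrpl52 4.89-fold higher. Over the whole list the TPM was 4116 in replicate 2 and 2532 in replicate 1.

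Of 80 nuclear subunits of the respiratory chain and ATP synthase that were tested, 6 (7.50%) were over 2-fold lower and 52 (65.0%) over 2-fold higher in replicate 2, beside 28.2% and 39.3% of all tested genes. Their median log2 ratio was 2.18, and 1.35 with the GC trend subtracted. Their TPM added up to 23147 in replicate 2 and 14435 in replicate 1, against 55120 and 314244 for the mitochondrial mRNAs and their copies. Uqcrb of complex III had 365 TPM in replicate 2 and 1654 TPM in replicate 1. By the ratio of scaled counts it was 4.14-fold lower. Cox6c of complex IV had 766 and 866 TPM, and Ndufa4, also in complex IV, 798 and 1432 TPM, both within 2-fold. Ndufa11 of complex I had 1407 counts in replicate 2 and was at 0 in replicate 1. That is at least 368-fold higher against a floor of 3 counts per library. By median GC of their transcripts, these nuclear lists lie at 46.8% to 51.9%, above every mitochondrial mRNA and rRNA.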

How the data were processed

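Both libraries were analysed from the gene and transcript tables the authors deposited. The file headers name expected counts, TPM and FPKM. Expected counts are taken here as the authors' estimates of reads per gene, with ambiguous reads divided between genes. TPM and FPKM are taken as the authors' abundances. Posterior means, posterior SDs and TPM bounds were also deposited, with no stated level. Other deposited columns, lengths and effective lengths, are in bases. Per the deposited descriptions, the tables use mm10 and GENCODE M4; for the aligner and quantifier the entry is: not given in the sources used here. The 26248 numbered rows and 97 spike-in rows were all at 0 and left out.

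Symbols, positions and sequences came from GENCODE M21, whose assembly GRCm38 is mm10 under another name, and 42462 of 43346 genes matched by identifier. All 74 values of the 37 genes were equal in gene and transcript tables. The listed Prorp was matched as 1110008L16Rik through its synonym. Expected counts were rounded to whole numbers and scaled by TMM in edgeR 4.0.16 (R 4.3.3), with factors of 1.10 for replicate 2 and 0.913 for replicate 1. The log2 ratio of replicate 2 over replicate 1 used a prior of 0.5 counts. The tested genes averaged 1 TPM or more, and a 2-fold threshold was used with no p-value. Intervals are exact Clopper-Pearson intervals at 95%, and a floor of 3 counts equals 0.175 CPM in replicate 2 and 0.186 CPM in replicate 1. Nuclear copies were found with BLAST 2.17.0 at 90% identity over at least 50% of the nuclear transcript and 100 bases, each given to its best match. GC content was the mean over a gene's transcripts, and the trend a lowess fit with a span of 0.3. Only the formula of the log2 ratio was tried on simulated counts with known folds, without the TMM step. That trial says nothing of the scaling of these 2 libraries. Intervals came from scipy 1.17.1, the trend from statsmodels 0.14.6 and the figures from matplotlib 3.10.9, with tables handled in pandas 2.3.3 under Python 3.11.15.

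The genes and lists were chosen with earlier results of these data known. Named were all 37 genes, copies with a mean of at least 100 TPM, the 3 members of highest mean TPM of each list and up to 4 members at 0 counts in 1 library with at least 100 in the other, and tissue markers. The alternatives were other scalings, priors and filters, posterior means, subtraction of the GC trend and addition of copies.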

Additional observations from a re-analysis of the deposited data

How the results depend on the processing

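Of all 14139 tested genes, 3990 (28.2%) were over 2-fold lower in replicate 2 in the main setting. This number ran from 3171 with total counts to 4462 as a TPM ratio. With the GC trend subtracted it was 2884 of 14067, and 2881 with copies added as well. All 13 mRNAs stayed over 2-fold lower under the other scalings, the prior of 5 counts, posterior means and with copies added. With the GC trend subtracted, 2 of the 13 did. With copies added as well, a combination chosen after seeing the data, 0 of the 13 did. Their median log2 ratio of -2.52 was -2.25 with total counts, -2.56 with median-of-ratios factors, -2.66 as a TPM ratio, -2.51 with posterior means, -2.46 with copies, -0.24 with the GC trend subtracted and -0.21 with both. With posterior means, mt-Co2 went from -4.04 to -3.09, mt-Co3 from -3.77 to -2.59 and mt-Atp6 from -3.21 to -2.76. The other 12 mRNAs and rRNAs stayed within their counting error. The rRNA median of -2.49 was -2.23 with total counts, -2.53 with median-of-ratios factors and -2.63 as a TPM ratio. It turned to 0.10 with the GC trend subtracted, also with copies added. Single genes that turned then were mt-Atp8 at 0.60 in both cases, mt-Nd3 at 0.55 and with copies 0.20, mt-Nd4 at 0.33 and 0.14, mt-Rnr1 at 0.13 and mt-Rnr2 at 0.059; the cause was not tested. The median of all tested genes was 0.19, against 0.45 with total counts and 0.01 as a TPM ratio. The 3990 genes over 2-fold lower were 2630 with a minimum of 10 TPM, where fewer genes are tested. The 37-gene share of TPM was 2.40% to 17.2% when either library was left out, that of the mRNAs 2.29% to 16.6%, and that of counts 1.75% to 8.94%; a ratio needs both libraries and has no such value. With copies added, the mean share of each of the 13 mRNAs moved by more than the spread between libraries. No paired analysis was possible because 1 group has no second group to pair with.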
